A study of Mus musculus with 18 samples.

Results

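The cytosolic ribosomal protein genes encode the proteins of the small and large ribosomal subunits that translate nuclear messenger RNAs. They were chosen by symbol and gene type: protein-coding mouse genes named Rpl or Rps plus a number, with Rplp0, Rplp1, Rplp2 and Rpsa, leaving out mitochondrial ribosomal proteins, pseudogenes and the Rps6k kinases. The annotation held 84 such genes, 83 of them stood in the count tables and 77 had enough counts to test, out of 38355 gene identifiers and 14876 tested genes. Rpl24 was not analysed here.

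RNA of left ventricular myocardium was sequenced in 18 libraries from mice of the (DBA/2J x C3HeB/FeJ)F1 background. The groups were WT without surgery (n = 5), and MHC-cycD2 transgenic mice, which carry a cyclin D2 transgene under a promoter the labels name only as MHC, after sham surgery (n = 5), TAC (n = 3, replicates 1, 2 and 4) or Shunt (n = 5). TAC is a banding of the transverse aorta that loads the ventricle with pressure. Shunt is a punctured connection between the abdominal aorta and the caval vein that loads the ventricle with volume. Sham surgery, TAC and Shunt were all done at 8 weeks of age. The labels do not say which sham operation a library had, the time after surgery, the sex of each mouse or the transgenic line. WT differs from cycD2 sham in both the transgene and the operation, and no group of operated WT mice was analysed here, so the effects of transgene and surgery on this contrast cannot be told apart.

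In every cell the ribosomal proteins are made in fixed proportions and assembled with ribosomal RNA in the nucleolus. Their messenger RNAs belong to a class that begins with a run of pyrimidines at the capped end, through which the mTOR pathway and the RNA-binding protein LARP1 control how well they are translated, so that output can change without a change in RNA level. Heart growth is known for a raised synthesis of ribosomes, and striated muscle replaces RPL3 in many of its ribosomes by the muscle paralogue RPL3L.

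The start sites are shown because a run of pyrimidines there is the known sequence feature of this class, and members differ in it. RefSeq promoters (GRCm38.p6) matched 64 members, and the window of 25 bases before and 25 after the annotated start was searched on the gene's own strand for unbroken runs of C and T. A run of at least 8 stood in 30 of the 64 members (46.9%) and in 19.4% of all 27025 promoters in the same window. The median longest run was 7 bases in members and 5 in all promoters. In the lines that follow the longest run is in capitals.
Rpl7a, chr2:26910782-26910831, plus strand: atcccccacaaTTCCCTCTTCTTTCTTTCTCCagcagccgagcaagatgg
Rpl14, chr9:120571492-120571541, plus strand: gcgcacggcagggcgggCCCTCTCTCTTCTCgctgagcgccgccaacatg
Rplp2, chr7:141447626-141447675, plus strand: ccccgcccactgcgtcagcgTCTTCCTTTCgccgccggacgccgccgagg
Rpl22l1, chr3:28805483-28805532, plus strand: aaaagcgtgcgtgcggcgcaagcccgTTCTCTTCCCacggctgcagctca
Rplp0, chr5:115559442-115559491, plus strand: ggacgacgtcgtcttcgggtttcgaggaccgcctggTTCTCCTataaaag
Rpl3l, chr17:24727801-24727850, plus strand: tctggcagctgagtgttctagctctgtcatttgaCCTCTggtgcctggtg
Rps4x, chrX:102189367-102189416, minus strand: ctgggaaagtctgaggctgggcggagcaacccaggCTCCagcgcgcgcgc
Rpl41, chr10:128549144-128549193, minus strand: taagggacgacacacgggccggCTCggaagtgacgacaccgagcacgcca
Rpl7a held a run of 21 bases, Rpl14 of 14, and Rplp2 and Rpl22l1 of 10 each. The runs of Rplp0, Rpl3l, Rps4x and Rpl41 were 7, 5, 4 and 3 bases long. These are matches to letters around an annotated start, and a short run in this window says nothing about the control of the gene.

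Reads that aligned to more than 1 place stand on a line of their own in the deposited tables and in no gene's count. Ribosomal protein genes have many near-identical processed pseudogenes, so the level of a member depends on how much of it can be told from its copies. For each member the share of 50-base windows of its main transcript found in no other annotated transcript was computed. Of the 77 tested members, 33 had at least 50% of their windows to themselves (18 of the large and 15 of the small subunit) and 44 had fewer (29 and 15). The members just below the threshold were Rpl38 at 47.9%, Rps23 at 48.3% and Rpl34 at 49.4%, and those just above it were Rpl12 at 50.6%, Rpl14 at 50.7% and Rpl28 at 52.6%. Rps4x had 27.8% of its windows to itself and shared windows with 11 genes. The windows were compared with annotated transcripts only, so copies outside the annotation were not seen.

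Levels per length tended to be higher in members with a larger share. Levels in CPM, edgeR's counts scaled to a common library size, per kilobase of transcript (CPM per kb) had a median of 55.2 in the unique members, 11.2 in the poorly unique and 0.317 in the 6 members with too few counts to test. Over the 83 members the rank correlation between unique share and CPM per kb was 0.504, a description across genes that share libraries and sequence. Rpl8, a protein of the large subunit, was the highest per length at 441 CPM per kb. Rplp1, of the stalk that recruits translation factors, followed at 386 and Rps15, of the small subunit, at 372. Rpl3l, the muscle paralogue, had all of its windows to itself and stood at 340. The lowest were Rpl10l, a testis paralogue, at 0.0102 CPM per kb, Rpl3 at 0.209 and Rpl39l, also a testis paralogue, at 0.296. Rpl10l and Rpl39l had 92.4% and 100% of their windows to themselves, so their low levels do not go with a low share, and Rpl3 had 14.4%. Rps6, Rpl23a and Rps27 were the other members with too few counts, although these proteins belong to every ribosome. The counts leave out reads that fit a copy as well, so the order of levels within the family was not read as an order of expression.

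**Figure D1:**
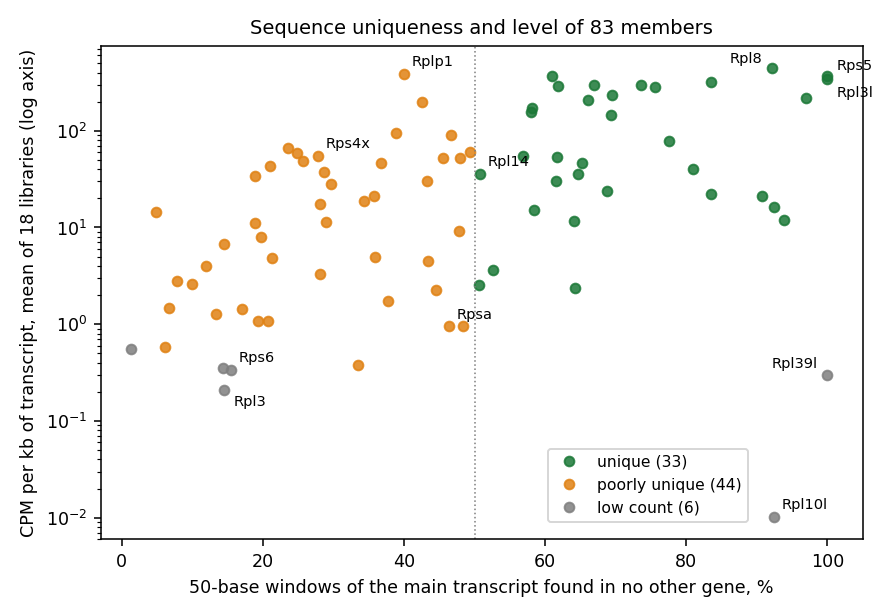
Level of each of the 83 members (mean over 18 libraries, CPM per kb, log axis) against the percent of its 50-base windows found in no other annotated transcript. Median levels are lower in the poorly unique members (11.2) than in the unique ones (55.2), while the paralogues Rpl10l and Rpl39l are low with nearly all windows unique and Rpl3l is high at 340 CPM per kb.

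The libraries held 19297821 to 30594075 gene counts, and the 83 members took 0.463% to 0.587% of them. Reads outside annotated genes were, of all reads with a gene, with no gene or ambiguous between genes, 19.003% to 22.8% in WT, 14.9% to 17.9% in cycD2 sham, 13.6% to 14.9% in TAC and 15.0% to 19.9% in Shunt, so WT and sham did not overlap in this share. Ccnd2 stood at 141 to 189 CPM in WT and at 17739 to 30478 CPM in the transgenic libraries, except in the library labelled TAC replicate 2, where it was 228 CPM. The TAC contrasts are given with all TAC libraries first and then without that library. The X-inactivation transcript Xist was high in TAC replicates 1 and 2 and in every Shunt library and near 0 in WT, sham and TAC replicate 4, so sex and group were largely confounded for the TAC and Shunt contrasts. The order of the daily clock genes Arntl and Dbp also differed among libraries within WT and sham. Arntl exceeded Dbp in every TAC library, and Dbp exceeded Arntl in every Shunt library. Heart muscle markers taken as a sum were detected in all libraries, as the tissue label says, and no gene of that list had 0 counts over a whole group. Differences were tested with edgeR's quasi-likelihood test with Benjamini-Hochberg adjustment over all 14876 genes, and a gene was called at an adjusted p under 0.05. Nothing in the labels says that each library is a separate animal, and the tests know only the spread among the libraries as given, which may be technical.

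In the first comparison, cycD2 sham with WT, most members were higher in cycD2 sham. Of the 77 tested members, 27 (35.1%) were called higher in cycD2 sham, 1 was called lower and 49 did not pass. Over all tested genes 13.5% were called higher and 14.9% lower, 28.4% in all. The log2 fold change was above 0 for 68 members (88.3%, against 48.2% of all genes), with a median of 0.19 and a middle range of 0.11 to 0.30, while the median of all genes was -0.01. In 22 members (28.6%) every sham library stood above every WT library, against 10.6% of all genes, and in 1 member every sham library stood below, against 11.7% of all genes. An unadjusted p under 0.05 was met by 40 of the 77 members and by 39.3% of all genes. The shifts were small in size: the median member was 1.14-fold higher in cycD2 sham.

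**Figure D2:**
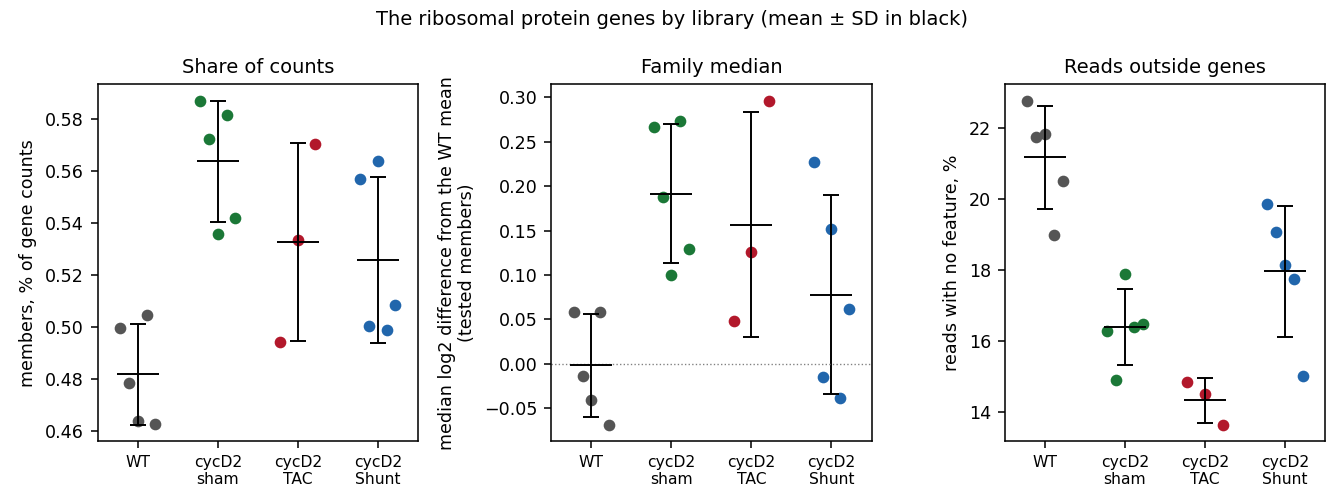
Members' share of gene counts (percent), the median log2 difference of the tested members from the WT mean, and the share of reads outside genes (percent), with 1 point for each of the 18 libraries and the mean ± SD of each group in black. The 5 sham libraries lie between 0.536% and 0.587%, above the 5 WT libraries at 0.463% to 0.504%, and the TAC (0.494% to 0.571%) and Shunt (0.499% to 0.564%) libraries overlap both groups.

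As a share of all gene counts, the 83 members made up 0.499%, 0.478%, 0.464%, 0.504% and 0.463% in WT replicates 1 to 5. The shares in cycD2 sham were 0.587%, 0.572%, 0.536%, 0.582% and 0.542%. The lowest sham library was above the highest WT library. Without Rpl3l, the muscle paralogue, the shares were 0.424% to 0.460% in WT and 0.478% to 0.524% in sham, and the groups still did not overlap.

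The rise ran through both subunits and both uniqueness classes. In the large subunit 17 of 47 tested members rose and none fell, with a median of 0.20, and in the small subunit 10 of 30 rose and 1 fell, with a median of 0.17. Among unique members 13 of 33 rose and 1 fell, and among poorly unique members 14 of 44 rose and none fell, with medians of 0.19 in each class. Of the 10 members with at least 80% of their windows to themselves all had positive changes and 4 were called, with a median of 0.18. Leaving out Rpl3l left 26 of 76 called higher.

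**Figure D3:**
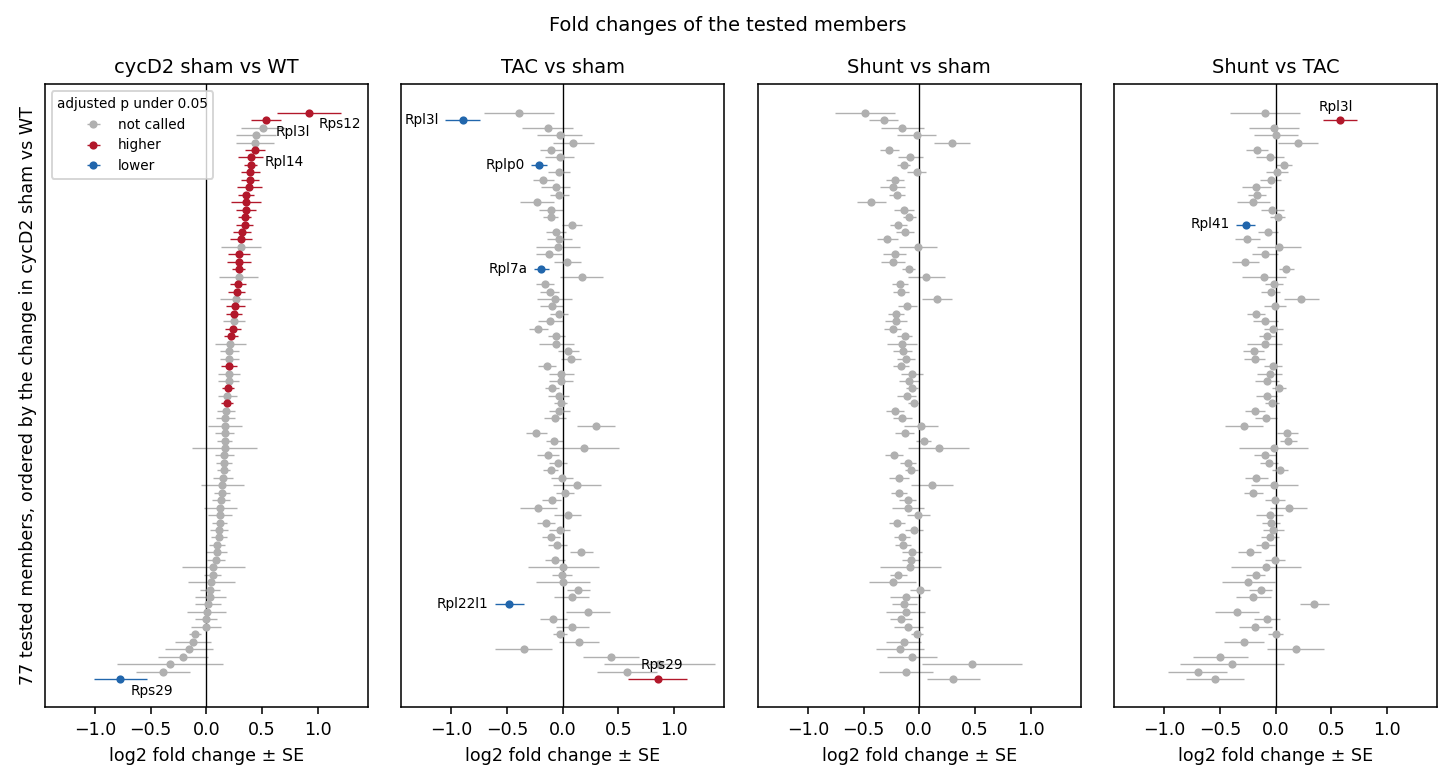
Log2 fold change ± SE of each of the 77 tested members in the 4 comparisons, in the order of the change from WT to sham, with members called higher in red and lower in blue. In cycD2 sham against WT the members lie mostly above 0 (68 of 77), and in Shunt against sham mostly below it (67 of 77) with none called.

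Rplp0, the anchor of the ribosomal stalk, had the smallest p of the family (chr5:115559467-115563727, plus strand). Its levels in WT were 203, 191, 195, 211 and 194 CPM and in cycD2 sham 261, 255, 254, 290.1 and 249 CPM. Every sham library was above every WT library, and the log2 fold change was 0.40 (SE 0.06, adjusted p = 0.00015). The partner proteins of the stalk moved in the same direction: Rplp1 rose by 0.25 (adjusted p = 0.0140) and Rplp2 by 0.31 (adjusted p = 0.0226). Rpsa, a small subunit protein also known as the laminin receptor, had 0.31 (adjusted p = 0.212) and was not called. Rpsa was counted at 0.981 to 2.04 CPM a library, and its pseudogene Rpsa-ps10 held 13959 counts over all libraries against 656 for Rpsa.

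Rpl14, of the large subunit, lies at chr9:120571444-120574654 on the plus strand in GENCODE M21. It stood at 28.7, 28.8, 27.6, 36.9 and 32.1 CPM in WT and at 41.1, 42.6, 40.1, 47.2 and 37.6 CPM in cycD2 sham. The lowest sham library was just above the highest WT library, and the log2 fold change was 0.44 (SE 0.09, adjusted p = 0.00124). Rps4x, the X-linked small subunit protein (chrX:102184941-102189394, minus strand), stood at 44.0, 45.7, 43.8, 49.3 and 47.1 CPM in WT. In cycD2 sham it was at 61.5, 61.0, 54.2, 60.0 and 55.6 CPM. The groups did not overlap, and the change was 0.35 (SE 0.06, adjusted p = 0.000361). Of the 4 X-linked members tested, Rps4x was the one called. Rpl10, Rpl36a and Rpl39, of the large subunit, had 0.26, 0.00 and 0.20 with adjusted p of 0.168, 0.989 and 0.143.

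Rpl8, the highest member per length, was at 324, 307, 312, 374 and 317 CPM in WT and at 453, 448, 392, 449 and 401 CPM in sham, a change of 0.39 (SE 0.08, adjusted p = 0.00173). Other large subunit members called with small p were Rpl32 at 0.36 (SE 0.07, adjusted p = 0.00126), Rpl7a at 0.29 (SE 0.06, adjusted p = 0.00138) and Rpl41 at 0.34 (SE 0.08, adjusted p = 0.00293). Rpl41 encodes a very short basic peptide of the large subunit. In each of these 4 genes all sham libraries stood above all WT libraries. The largest fold of the family, 0.92 for Rps12 (adjusted p = 0.0210), which was chosen after its values were seen, rested partly on sham replicate 1, with 80 counts against 26 to 31 in the other sham libraries.

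Rps29, a small zinc-binding protein of the small subunit, went the other way. Its levels were 0.897, 1.39, 1.13, 1.18 and 1.07 CPM in WT and 0.872, 0.453, 0.828, 0.685 and 0.487 CPM in cycD2 sham. No sham library reached the lowest WT library, and the change was -0.77 (SE 0.24, adjusted p = 0.0225). These levels are 18 to 27 counts a library in WT and 11 to 20 in sham, and a copy of Rps29, Gm14303, took 827 counts over all libraries against 396 for Rps29 itself. Of the other members with a paralogue of the same name, several were not called. Rpl22 had -0.10 (adjusted p = 0.194), Rpl22l1 0.01 (adjusted p = 0.942), Rpl36al 0.15 (adjusted p = 0.221), Rps27l, a p53-induced copy of Rps27, 0.03 (adjusted p = 0.814), and Rpl7l1 0.11 (adjusted p = 0.339). Rpl7 itself rose by 0.19 (adjusted p = 0.0120).

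The calls of this comparison moved with a library property. With the share of reads outside genes as a covariate, none of the 77 members was called, 67 were still positive and the median was 0.21. The calls over all genes went from 4227 to 171 in the same fit. In a fit to sham and WT alone with that covariate, added after seeing the data, none was called either, the median was 0.14 and 195 genes were called in all. Some named members kept little of their change there: Rpl14 had 0.059, Rpl32 0.093, Rplp2 0.099, Rpl8 0.10 and Rps4x 0.11. Rplp0 had 0.33 and Rpl3l 0.45, most of their change. Rpl7a had 0.33 and Rpl7 0.22, no less than without the covariate. In the fit to all groups Rplp2 had 0.16, Rps4x 0.19 and Rpl14 0.31. The share of reads outside genes and the groups cannot be told apart between WT and sham, whose ranges do not overlap. The share of lines not uniquely aligned, which are in no gene's count, did not overlap either. It was 43.1% to 45.9% in WT and 39.1% to 41.9% in sham. That share was not used as a covariate, and its part in the calls was not tested. Where Arntl exceeded Dbp (WT replicates 1 to 3, sham replicates 1 and 2) 6 of 77 members were called higher, against 487 of 14775 genes. Where Dbp exceeded Arntl 5 of 77 were called higher, against 949 of 14774 genes, which is close to the same share. The median of the members was 0.22 in each. The summed level of the 8 heart muscle markers was 78522 to 92402 CPM in WT and 93706 to 106229 CPM in sham, and 1 of 8 was called higher and none lower, with 2 of 8 negative. The gene called was Myh6, the main cardiac myosin, at 0.49 (adjusted p = 0.00446). The 8 endothelial markers were at 1143 to 1522 CPM in WT and at 929 to 1230 CPM in sham, and 5 of 8 were called lower. No marker of either list had 0 counts over a whole group, and the part of these markers in the rise was not tested. In bulk tissue, fewer cells of a type and less RNA per cell cannot be told apart.

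Rpl3l, the striated muscle paralogue of Rpl3 (chr17:24727820-24736143, plus strand), was called in 3 of the 4 comparisons. Its levels were 403, 409, 407, 452 and 392 CPM in WT and 641, 568, 593, 656 and 538 CPM in cycD2 sham. TAC replicates 1, 2 and 4 had 297, 224 and 444 CPM. Shunt replicates 1 to 5 had 424, 476, 598, 456 and 447 CPM. Every sham library was above every WT library and every TAC library. The change was 0.54 from WT to sham (SE 0.13, adjusted p = 0.00583) and -0.90 from sham to TAC (SE 0.16, adjusted p = 0.000419).

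**Figure D4:**
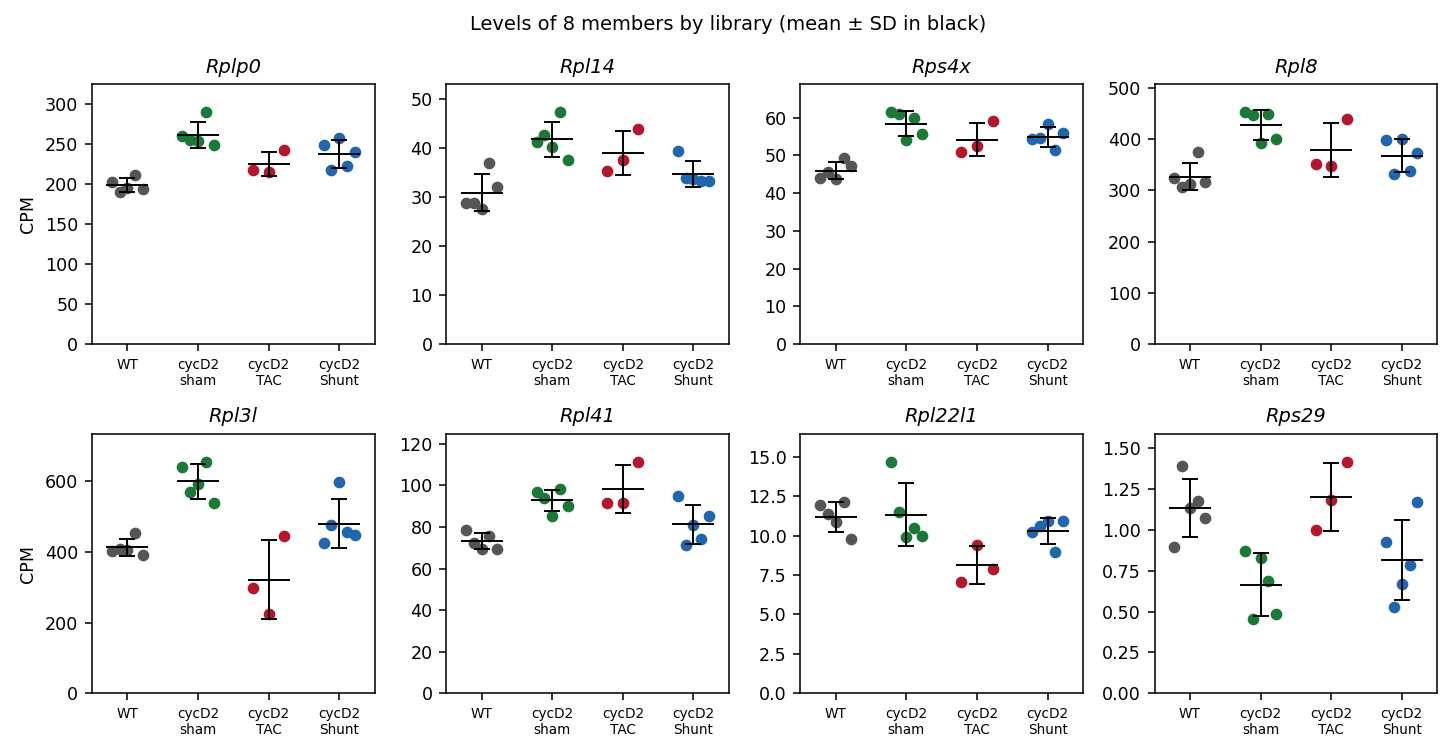
Level (CPM, linear axes from 0) of 8 members in each of the 18 libraries by group, with the mean ± SD in black. Rplp0, Rpl14 and Rps4x are higher in all sham than in all WT libraries, and Rpl3l is below every sham library in the 3 TAC libraries.

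Rpl3 itself, the paralogue that Rpl3l replaces, lies at chr15:80077791-80091868 on the minus strand and had 2 to 13 counts a library. Its copy Rpl3-ps1 held 2285 counts over all libraries against 122 for Rpl3. The coding sequences of Rpl3 and Rpl3l were identical at 74.4% of 1205 aligned bases and shared no run longer than 22 bases, so no 50-base window of either is found in the other. Their first 60 coding bases, from the GENCODE M21 transcripts, are shown with the differing bases in capitals because the assignment of reads between the pair rests on such differences.
Rpl3: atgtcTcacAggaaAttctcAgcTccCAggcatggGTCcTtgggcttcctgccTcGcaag
Rpl3l: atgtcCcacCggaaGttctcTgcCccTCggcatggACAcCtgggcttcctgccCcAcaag
The log2 ratio of Rpl3l to Rpl3 counts, with 0.5 counts added to each, had means of 10.67 in WT, 10.83 in sham, 10.13 in TAC and 10.78 in Shunt. The difference was 0.16 for sham against WT (exact permutation p = 0.635, two-sided), -0.70 for TAC against sham (exact p = 0.143), -0.05 for Shunt against sham (exact p = 0.913) and 0.64 for Shunt against TAC (exact p = 0.393). After adjustment over the 4 comparisons the p-values were 0.847, 0.571, 0.913 and 0.786. The smallest p these designs allow is 0.00794 for 5 against 5 libraries and 0.0179 for 3 against 5. Without the library labelled TAC replicate 2 the differences were -0.41 for TAC against sham and 0.36 for Shunt against TAC, each with an adjusted exact p of 0.913. At 2 to 13 counts of Rpl3, changes of this ratio were not detectable.

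The second comparison was cycD2 TAC with cycD2 sham. Here 1 of 77 members was called higher and 4 lower, against 16.4% and 14.5% of all tested genes, 30.9% in all, so few members moved in a contrast that changed many genes. An unadjusted p under 0.05 was met by 8 of the 77 members and by 41.3% of all genes. The median log2 fold change of the members was -0.04, and 23 of 77 were positive, against 50.7% of all genes. In 3 members every TAC library stood above every sham library (14.5% of all genes) and in 4 every one stood below (13.6% of all genes). The members' share of gene counts was 0.494%, 0.534% and 0.571% in TAC replicates 1, 2 and 4, within and below the range of 0.536% to 0.587% in sham.

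The 4 members called lower all belong to the large subunit, which holds 47 of the 77 tested members. The median change was -0.03 in the large subunit and -0.07 in the small subunit. Beside Rpl3l, given above, Rpl22l1 stood at 14.7, 11.5, 9.93, 10.5 and 9.96 CPM in sham and at 7.07, 9.43 and 7.86 CPM in TAC. Every TAC library was below every sham library, and the change was -0.48 (SE 0.13, adjusted p = 0.0104). RPL22L1 can take the place of its paralogue RPL22, whose gene stood at 128 to 133 CPM in TAC and 121 to 139.5 CPM in sham. Rplp0 fell by 0.22 on the log2 scale (SE 0.07, adjusted p = 0.0267), with 218, 216 and 243 CPM in TAC. Rpl7a fell by 0.19 (SE 0.07, adjusted p = 0.0408), with 28.3, 29.3 and 31.5 CPM in TAC against 31.8, 34.1, 34.5, 35.6 and 33.4 CPM in sham. With the replicate number as a block the change of Rpl7a was -0.18 with an adjusted p of 0.084, and it was no longer called. Rps29 was the member called higher, at 0.85 (SE 0.27, adjusted p = 0.0214), with 0.998, 1.18 and 1.42 CPM in TAC.

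Rpl14 and Rps4x were not called. In TAC replicates 1, 2 and 4 Rpl14 stood at 35.2, 37.6 and 43.8 CPM and Rps4x at 50.8, 52.5 and 59.3 CPM, inside or below the sham range. Rpl8, at 352, 347 and 440.4 CPM, had -0.17 (adjusted p = 0.172). In these 3 genes, and in Rpl3l and Rplp0, replicate 4 had the highest level of the TAC libraries. It is also the TAC library in which Xist was near 0.

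Without the library labelled TAC replicate 2, none was called higher, against 10.9% of all genes, and 2 were called lower, against 10.8%. These were Rpl3l at -0.71 (adjusted p = 0.00209) and Rpl22l1 at -0.62 (adjusted p = 0.00637). Rpl7a, Rplp0 and Rps29 had -0.20, -0.20 and 0.84 in that fit, with adjusted p of 0.0909, 0.0979 and 0.0602. Rpl8, Rpl14 and Rps4x had -0.13, -0.10 and -0.10 and were not called. Without TAC replicate 4, 10 of 79 tested members were called lower, against 2324 of 15070 genes. Without TAC replicate 1, 1 of 79 was called higher and 1 lower, against 1812 and 1630 of 15047 genes. With the level of Y-linked genes as a covariate no member was called, Rpl3l had -0.43 (adjusted p = 0.19), the median of the members was 0.10 and 475 genes were called in all. The mean Y-linked level (log2 CPM) was 5.2 in TAC replicate 4 and -2.2 and -2.1 in TAC replicates 1 and 2. In sham it was 5.3 to 5.5, so this fit rests largely on 1 TAC library, replicate 4, against sham. The 8 heart muscle markers summed to 61768 to 93701 CPM in TAC against 93706 to 106229 CPM in sham, with 5 of 8 called lower, and the 8 fibroblast markers to 3924 to 8813 CPM against 2374 to 3811 CPM, with 6 of 8 called higher. Of the endothelial markers 5 of 8 were called higher, with 1266 to 1402 CPM in TAC against 929 to 1230 CPM in sham, and of the smooth muscle markers 4 of 8 were called higher. The 4 atrial muscle markers summed to 2404 to 5005 CPM in TAC against 84.5 to 782 CPM in sham, with 1 called higher. In the fit that left out the library labelled TAC replicate 2, 3 heart muscle markers were called lower, and 3 fibroblast, 2 endothelial, 3 smooth muscle and 1 atrial were called higher. No marker of these lists had 0 counts over a whole group. The part of these markers in the fall of Rpl3l, whose product is made in muscle cells, was not tested.

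In the third comparison, cycD2 Shunt with cycD2 sham, no member was called in either direction by edgeR's quasi-likelihood test, nor by DESeq2 or limma-voom. Over all genes 0.108% were called higher and 0.134% lower, 0.242% in all. The members were nevertheless mostly lower: 67 of 77 had negative and 10 had positive changes, against 50.8% positive over all genes, with a median of -0.13, and 23 of 77 had an unadjusted p under 0.05, against 14.6% of all genes. The shift was not particular to the members. Mitochondrial ribosomal protein genes had 76 of 77 negative (median -0.16), and nuclear subunits of the respiratory chain had 70 of 73 (median -0.23). Negative changes stood in 27 of 41 genes of ribosome biogenesis and 23 of 36 translation factors. Of the genes that control ribosomal protein synthesis 13 of 26 were negative. In no member did every Shunt library stand above every sham library (1.79% of all genes), and in 1 every one stood below (2.3% of all genes). This was Rpl36, of the large subunit, at -0.43 (adjusted p = 0.182). Rpl14 had -0.27 (adjusted p = 0.197), with 39.3, 33.9, 33.6, 33.2 and 33.2 CPM in Shunt, and 4 of the 5 Shunt libraries were below every sham library. Rplp2 had -0.29 and Rplp1 -0.21, each with an adjusted p of 0.209, Rpl32 had -0.20 (adjusted p = 0.224) and Rps15 -0.22 (adjusted p = 0.232). Rpl3l had -0.32 (adjusted p = 0.286). Rps4x, at 54.2, 54.6, 58.3, 51.4 and 56.0 CPM, overlapped the sham libraries. The members' share was 0.557%, 0.5002%, 0.564%, 0.499% and 0.509% in Shunt replicates 1 to 5, with replicates 1 and 3 inside the sham range. The 8 heart muscle markers summed to 80879 to 88992 CPM in Shunt against 93706 to 106229 CPM in sham, without overlap, and 7 of 8 were negative with a median of -0.25 and none called. Their part in the members' values was not tested. Every Shunt library, and no sham library, had high Xist, so sex and operation cannot be told apart in this contrast. With the Y-linked level as a covariate, which rests on the TAC libraries, the median of the members was 0.13 and 60 of 77 were positive, with no gene called in the whole table.

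The fourth comparison, cycD2 Shunt with cycD2 TAC, sets the operations against each other directly. Arntl exceeded Dbp in every TAC library and Dbp exceeded Arntl in every Shunt library. The effects of operation and of clock order therefore cannot be told apart in this contrast. The 3 contrasts with sham share its 5 libraries, so their values are set side by side here and not correlated. Of 77 members 1 was called higher and 1 lower, against 13.3% and 13.6% of all genes and 27% in all, with a median of -0.08 and 16 positive changes (48.8% of all genes). An unadjusted p under 0.05 was met by 11 of the 77 members and by 39% of all genes. In no member did every Shunt library stand above every TAC library (12.2% of all genes), and in 1, Rps13 of the small subunit at -0.70 (adjusted p = 0.0569), every one stood below (12.5% of all genes). Rpl3l was 0.58 higher in Shunt (SE 0.16, adjusted p = 0.0109), where sham to TAC had -0.90 and sham to Shunt -0.32. The highest TAC library, replicate 4 at 444 CPM, overlapped the Shunt libraries. Rpl41 had -0.27 (SE 0.09, adjusted p = 0.0304), with 94.9, 71.2, 81.1, 74.5 and 85.2 CPM in Shunt against 91.4, 91.4 and 111 CPM in TAC, and Shunt replicate 1 was within the TAC range. Rpl22l1 had 0.35 (adjusted p = 0.0586). Without the library labelled TAC replicate 2, Rpl3l had 0.38 (adjusted p = 0.0715) and was not called, while Rpl41 had -0.31 (adjusted p = 0.0404). Rpl22l1 had 0.47 (adjusted p = 0.0321) and was called higher there, and Rps13 had -0.65 (adjusted p = 0.159). Rpl3l was also not called without TAC replicate 1 (0.52, adjusted p = 0.0503), and Rpl41 not without TAC replicate 4 (-0.17, adjusted p = 0.192) or without Shunt replicate 2, 3 or 4 (adjusted p of 0.0711, 0.0532 and 0.0699).

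Genes that act with the ribosomal proteins were read from lists of known members, beside the 13.5% of all genes called higher and 14.9% called lower from WT to sham. The lists were not counted in the fits with the share of reads outside genes as a covariate. In the fit to all groups with that covariate, the calls over all genes from WT to sham went from 4227 to 171. Among 41 tested genes of ribosome biogenesis, 10 rose (24.4%) and 4 fell (9.76%) from WT to cycD2 sham, with a median of 0.14. Ubtf, which drives transcription of ribosomal RNA genes, rose by 0.28 (adjusted p = 0.00135), Nop56, of the particles that methylate ribosomal RNA, by 0.46 (adjusted p = 0.00233) and Ebna1bp2, of large subunit assembly, by 0.28 (adjusted p = 0.00148). Wdr12, of the complex that processes large subunit precursors, fell by 0.42 (adjusted p = 0.0011). Among 36 translation factors 5 rose (13.9%) and 4 fell (11.1%), shares close to those of all genes, with a median of 0.05. The 4 with the smallest p were Eif4g1 at -0.37, Eif4e at -0.48, Eif4a2 at -0.35 and Pabpc4 at -0.25, of the machinery that binds the cap and the poly(A) tail. Of 26 genes that control ribosomal protein synthesis 3 rose (11.5%) and 5 fell (19.2%), also near the shares of all genes, with Rps6kb1, the kinase of ribosomal protein S6, at -0.31 (adjusted p = 0.000914) and Tsc2, a brake on mTOR, at -0.20 (adjusted p = 0.0125). Of the ribosomal proteins with other symbols, the scaffold Rack1 rose by 0.19 (adjusted p = 0.0238) and Fau, a ubiquitin-like fusion, had -0.07 and was not called.

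The ribosomal proteins of mitochondria went the other way in the same libraries. Of 77 tested Mrpl and Mrps genes 1 rose (1.30%) and 22 fell (28.6%) from WT to sham, against 13.5% and 14.9% of all genes, with a median of -0.14, where the cytosolic members had 27 and 1 and a median of 0.19. Mrps23 fell by 0.45 (adjusted p = 8.53e-05) and Mrpl3 by 0.33 (adjusted p = 0.000273), and Mrpl48 rose by 0.32 (adjusted p = 0.000532). These genes were also not counted in the fits with the share of reads outside genes as a covariate. From sham to TAC none rose and 27 fell (35.1%, against 14.5% of all genes), with a median of -0.16. Nuclear subunits of the respiratory chain, another group of short abundant transcripts, had 8 higher (11.0%) and 7 lower (9.59%) of 73 from WT to sham, below the shares of all genes, with a median of -0.02. From sham to TAC 43 were lower (58.9%) and none higher, with a median of -0.34. In the fit without the library labelled TAC replicate 2, 18 mitochondrial ribosomal protein genes (23.4%) and 25 respiratory chain genes (34.2%) were lower and none higher, against 10.8% of all genes lower. From sham to Shunt none of either list was called, with medians of -0.16 and -0.23.

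**Figure D5:**
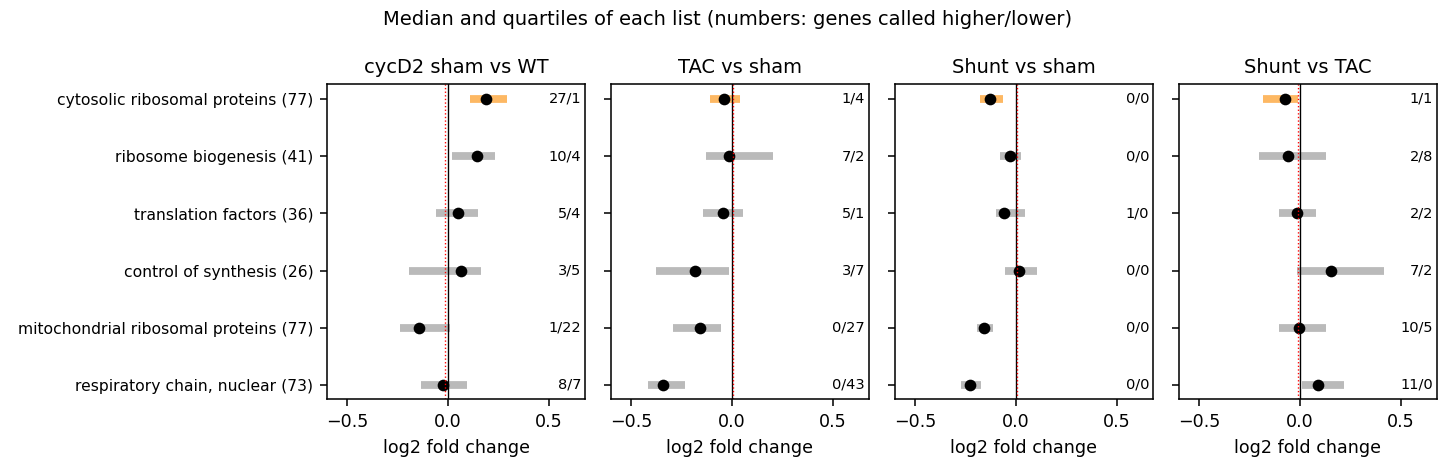
Median (point) and quartiles (bar) of the log2 fold change of the members and of related gene lists in the 4 comparisons, with the numbers of genes called higher and lower, and the median of all genes as a dotted line. From WT to cycD2 sham the cytosolic members (0.19) and ribosome biogenesis (0.14) lie above 0 and the mitochondrial ribosomal proteins (-0.14) below it.

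From sham to TAC, where 16.4% of all genes were called higher and 14.5% lower, ribosome biogenesis had 7 genes higher (17.1%) and 2 lower (4.88%), led by Rrp12, of small subunit export, at 1.38 (adjusted p = 3.55e-05), with Dkc1, the enzyme that makes pseudouridine in ribosomal RNA, at -0.52 (adjusted p = 0.0004). Translation factors had 5 higher (13.9%) and 1 lower (2.78%), with Pabpc1 at 0.48 (adjusted p = 0.00304) and Eif4g2 at -0.32 (adjusted p = 0.00339). Genes of control had 3 higher (11.5%) and 7 lower (26.9%), with Akt2 at -0.42 (adjusted p = 0.000606) and Maf1, a repressor of RNA polymerase III, at -0.58 (adjusted p = 0.000813). When the library labelled TAC replicate 2 was left out, the counts were 3 and 2, 3 and 1, and 0 and 5 in these lists, against 10.9% and 10.8% of all genes. The named genes were called in the same direction in that fit: Rrp12 at 1.32, Dkc1 at -0.44, Pabpc1 at 0.38, Eif4g2 at -0.31, Akt2 at -0.35 and Maf1 at -0.60. From sham to Shunt the only call in these lists was Eif2s3x, an X-linked initiation factor, at 0.89 (adjusted p = 0.00129). Every Shunt library and no sham library had high Xist, so sex and operation cannot be told apart for this gene. From TAC to Shunt, ribosome biogenesis had 2 higher and 8 lower, with Rrp12 at -1.19 (adjusted p = 0.000158), and the genes of control had 7 higher and 2 lower, with Akt2 at 0.46 (adjusted p = 0.000498). All genes had 13.3% and 13.6%. With that library left out these counts were 2 and 5, and 6 and 0, with Rrp12 at -1.15 and Akt2 at 0.37, both still called.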

How the data were processed

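The authors deposited 1 table for each of the 18 libraries, with whole-number counts of reads for each Ensembl identifier and no normalization. Per the labels' protocols, total RNA was purified with an RNeasy kit for fibrous tissue and made into libraries with the TruSeq RNA Sample Preparation v2 chemistry. It keeps no strand, so reads of overlapping genes on opposite strands cannot be told apart. The submitters' processing notes list STAR 2.3.0e, HTSeq 0.6.1p1, DESeq2 1.8, SAMtools 0.1.19, CASAVA 1.8.2 and FastQC, and the builds GRCm38 and mm10; the annotation release and strand setting are not given in the sources used here. Reads not uniquely aligned made up 37.6% to 45.9% of all lines and are in no gene's count, which lowers members with copies. The 5 summary lines of each table stayed out of library sizes. GENCODE M21 matched 36602 of the 38355 identifiers.

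Genes passing edgeR's filterByExpr (minimum count 10, by group) were scaled by TMM and fitted with 1 mean per group over all 18 libraries (edgeR 4.0.16, quasi-likelihood F test, robust, R 4.3.3; biological coefficient of variation 0.16). The SE of a log2 fold change is its absolute value divided by the square root of its F. CPM were computed by edgeR with the TMM factors applied, and errors of CPM are SDs. The uniqueness windows, start sites and lists were computed with Python 3.11.15, and the fit was tested on simulated data. The split by uniqueness and the list counts without TAC replicate 2 were added after seeing the data.

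Members and lists were chosen with earlier results of these data known. The rule named Rpl14 and Rps4x, members with paralogues, the stalk and laminin receptor proteins, the X-linked members, up to 8 called members by smallest p in each direction, the 3 highest and 3 lowest per length and the members set apart, and from the other lists up to 4 genes by smallest p. Some genes that the rule names are not reported here. The replicate numbers were checked for pairing from the data and not from the labels. Deviations of same-numbered TAC and sham libraries correlated at 0.129, 0.151 and 0.157, all over 0.1. TAC replicates 1 and 2 were each more like a sham library of another number, so pairs were not established. The main fit has no block, and a fit with the replicate number as a block is given beside it. In the other comparisons not all of these correlations were over 0.1. For Shunt against TAC they were 0.1695, 0.1391 and 0.0928 for replicates 1, 2 and 4. Each of these Shunt libraries was most like the TAC library of its own number. No library pair was a duplicate: the lowest chi-square per gene was 7.08. Other settings were other scalings, DESeq2 1.42.0, limma-voom (limma 3.58.1), other count filters, the replicate block, covariates for clock, Y-linked genes and reads outside genes, and leaving out each library.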

Additional observations from a re-analysis of the deposited data

Results flagged for a closer look

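In 6 of the 66 tests of a named member within a group of 4 to 10 libraries, 1 library lay far from the others, and chance does this in about 1 of 20 tests. Sham replicate 4 was the high one for Rplp0 (290.1 CPM against 249 to 261) and Rpl7 (120.4 against 108 to 111). WT replicate 4 was high for Rpl3l (452 CPM against 392 to 409) and Rpl8 (374 against 307 to 324). Shunt replicate 1 was high for Rpl14 (39.3 CPM against 33.2 to 33.9) and Rpl7l1 (64.9 against 51.3 to 55.1). These genes share libraries, so the results are not independent. Rplp0, Rpl7, Rpl3l and Rpl8 were also called higher in sham than WT without sham replicate 4 and without WT replicate 4.

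For 2 members the changes from sham under the operations differed by the direct test of Shunt against TAC. Rpl3l differed by 0.58 (changes of -0.90 under TAC and -0.32 under Shunt), and Rpl41 by -0.27 (0.08 under TAC and -0.19 under Shunt). The call for Rpl3l was lost in 3 of 12 other settings (clock covariate, covariate for reads outside genes, groups fitted alone) and in 2 of 8 fits that left out 1 library (TAC replicate 1, and the library labelled TAC replicate 2, with 0.38). The call for Rpl41 was lost in 6 of 12 settings and in 4 of 8 fits that left out 1 library, with values from -0.33 to -0.13 over all of these fits.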

How the results depend on the processing

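Other scalings (relative log expression, upper quartile, library totals), DESeq2, limma-voom and other count filters left the number of members called higher in cycD2 sham against WT between 25 and 31. Over all genes these settings called 1841 to 2258 higher, of 13433 to 25861 tested. Leaving out each library in turn gave 21 to 30 higher and 0 to 1 lower. Among all genes 1556 to 2062 were called higher and 1771 to 2027 lower in these fits, of 14825 to 14879 tested. With the share of reads outside genes as a covariate, 0 members were called higher in the fit to all groups (59 of 14876 genes). The number was also 0 in the fit to sham and WT alone (81 of 14008 genes), which was added after seeing the data. It was 6 within the libraries with Arntl above Dbp, where 487 of 14775 genes were called higher. Within those with Dbp above Arntl it was 5, where 949 of 14774 genes were called higher. The number called lower was 0 in these 4 fits and with no low-count filter. The subsets hold fewer samples, and for the covariate the cause was not tested.

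For TAC against sham the number called higher was 0 with the clock covariate, the Y-linked covariate, the covariate for reads outside genes and the libraries with Arntl above Dbp. In that order 1829, 283 and 1944 of 14876 genes and 829 of 14775 were called higher. The number called lower was 2 with library totals, with no low-count filter and with the libraries with Arntl above Dbp, 1 with the groups fitted alone and 0 with the Y-linked covariate. All genes had, in that order, 1637 of 14876, 1855 of 25861, 666 of 14775, 1565 of 14369 and 192 of 14876 called lower. The fit with the Y-linked covariate rests largely on TAC replicate 4 in this contrast. Leaving out each library gave 0 to 1 higher and 1 to 10 lower. Leaving out TAC replicate 4 gave 10 lower, TAC replicate 1 gave 1, and TAC replicate 2 or sham replicate 4 gave 2 each. Over all genes these fits called 2324 of 15070, 1630 of 15047, 1624 of 15033 and 1894 of 14875 lower. No member was called higher when sham replicate 2 or TAC replicate 2 or 4 was left out. The same fits called 2388 of 14825, 1633 of 15033 and 2600 of 15070 genes higher. For Shunt against sham the count was 0 in both directions under every setting run. The calls over all genes in these settings ran from 0 with the Y-linked covariate to 232 with DESeq2. For Shunt against TAC the number called higher was 2 with DESeq2 and 0 with the covariate for reads outside genes and with the groups fitted alone. These settings called 2214 of 14876, 757 of 14876 and 1308 of 14521 genes higher. The number called lower was 2 with library totals and 0 with no low-count filter, the replicate block, the clock covariate, the Y-linked covariate, the covariate for reads outside genes and the groups fitted alone. With library totals 2036 of 14876 genes were called lower. The other settings, in that order, had 1677 of 25861, 1730, 1055, 1869 and 751 of 14876, and 1445 of 14521. Leaving out each library gave 0 to 2 higher and 0 to 7 lower. Between 1346 and 2158 genes were called higher in these fits and between 1357 and 2198 lower, of 14830 to 15070 tested. Without TAC replicate 1, 7 of 79 members were called lower, against 1651 of 15047 genes. Without Shunt replicate 1, 6 of 77 were called lower, against 2198 of 14837 genes. The number of members was 0 lower without TAC replicate 4 or Shunt replicate 2, 3 or 4, and 0 higher without TAC replicate 1. The cause of these moves was not tested.

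With the replicate number as a block, 26 members were called higher and 1 lower for sham against WT, 1 and 4 for TAC against sham, 0 and 0 for Shunt against sham and 1 and 0 for Shunt against TAC, where Rpl41 had -0.24 with an adjusted p of 0.065. All genes had 2023 and 2219, 2233 and 1896, 19 and 24, and 1663 and 1730 of 14876 in these comparisons. Under the Y-linked covariate the sign turned for Rpl14 (0.079) and Rps4x (0.017) in TAC against sham, and for Rpl14 (0.043), Rpl3l (0.54) and Rps4x (0.13) in Shunt against sham. None of these changes was called. That covariate rests largely on TAC replicate 4 against TAC replicates 1 and 2. Rps4x in Shunt against TAC ran from -0.025 (without TAC replicate 1) to 0.088 (without TAC replicate 4) and was -0.0038 without Shunt replicate 3. The ratio of Rpl3l to Rpl3 in Shunt against sham ran from -0.41 to 0.19 over the left-out libraries, with 0.08 without sham replicate 4, 0.19 without Shunt replicate 1 and 0.18 without Shunt replicate 4. With 5 counts added, the 4 differences of that ratio were 0.41, -0.76, -0.12 and 0.64. Fits split by clock genes were not run where a group had no such library, and levels per unique window used annotated transcripts in place of a genome. The counts of members such as Rps29, Rps12 and Rpl3, below 100 a library, limit what could be detected for them.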

Other observations

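The annotated pseudogene copies of the members were also counted. In 5 of 55 pairs of a member and its closest copy, the copy held more reads over all libraries than the member: Rpsa-ps10 (13959 against 656 for Rpsa), Rpl3-ps1 (2285 against 122 for Rpl3), Gm14303 (827 against 396 for Rps29), Gm15500 (685 against 522 for Rpl5) and Gm6472 (11364 against 10024 for Rps7). Of the 20 copies with enough counts to test, 3 were called higher (15%, against 13.5% of all genes) and none lower in cycD2 sham against WT by edgeR's quasi-likelihood test, with a median log2 fold change of 0.22. Rpsa-ps10 rose by 0.38 (adjusted p = 0.00521), as did Gm8730, a copy of Rplp0 (0.38, adjusted p = 0.00124). The copies were not counted in the fits with the share of reads outside genes as a covariate. From sham to TAC 1 copy was called higher and 1 lower, and from sham to Shunt none was called. Rpl3-ps1 rose by 0.66 from sham to TAC (adjusted p = 0.0185), with 4.50 ± 0.772 CPM in sham (SD, n = 5) and 7.10 ± 1.27 CPM in TAC (SD, n = 3), while Rpl3l fell there by 0.90. Without the library labelled TAC replicate 2 no copy was called and Rpl3-ps1 had 0.48 (adjusted p = 0.129). Whether these reads came from the copies or from the members could not be tested with these counts.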
